A study of Mus musculus with 6 samples.

Results

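MiR-21 was examined in retinal cells of mice with experimental autoimmune uveoretinitis (EAU) as every spot whose probe name carries the mouse entry mmu-miR-21. This rule found 1 kind of probe among 1983 on the array, of which 597 name a mouse miRNA. The probe is named for human, mouse and rat miR-21 together and sits in 4 spots among the 8720 of each array, which gave 24 readings in each of 2 dye channels. The 3 EAU samples were retinal cells of B10.RIII mice aged 8 weeks that were developing EAU on day 14, and the 3 naive samples were retinal cells of B10.RIII mice of the same age. EAU is a T cell driven inflammation of the retina that serves as a model of human uveitis. Total RNA (800 ng per sample) was labelled with the dye Hy3, a shared pool blended from equal amounts of the samples was labelled with Hy5, and both were hybridised to locked nucleic acid capture arrays in 1 dye orientation. How many mice stand behind a sample is not in the labels. Every p below reflects how far separate harvests lay apart, each read on its own slide, so the spread of harvests and that of slides are mixed. The p values by limma also borrow spread from the other probes.

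A microRNA (miRNA) is a short RNA cut from a hairpin precursor that guides Argonaute proteins to messenger RNAs, mainly through the pairing of its seed, bases 2 to 8. MiR-21 is a miRNA of many cell types whose transcription is known to be raised by STAT3 and AP-1 signalling, and it is abundant in activated immune cells and in reactive glia. Its known targets include the messenger RNA of Pdcd4, an inhibitor of translation.

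The RefSeq sequences (GRCm38.p6) of both strands cut from the mouse miR-21 precursor are shown because the array carries a probe for each of them. The mature sequences of the paralogues miR-21b and miR-21c follow because no probe names them. Seed bases are in capitals, 5′ to 3′.
miR-21a-5p (miR-21 on the array): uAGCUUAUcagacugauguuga
miR-21a-3p (miR-21* on the array): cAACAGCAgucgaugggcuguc
miR-21b: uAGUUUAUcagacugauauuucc
miR-21c: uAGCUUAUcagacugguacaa

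MiR-21a-5p lies at chr11:86584120-86584141 on the minus strand, and miR-21a-3p lies at chr11:86584082-86584103 on the same strand. The hairpin of 92 bases occupies chr11:86584067-86584158, inside the interval of the gene Vmp1, a membrane protein of autophagy that is transcribed from the same strand, 209 bases from the lower end of that interval. The whole hairpin is shown to place both arms, which are in capitals.
Mir21a hairpin: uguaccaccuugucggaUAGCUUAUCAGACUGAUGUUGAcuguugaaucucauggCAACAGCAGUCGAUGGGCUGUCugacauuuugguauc

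Counted from 1 at the 5′ end, miR-21b (chr3:29636768-29636790, plus strand) differs from miR-21a-5p by the substitutions C4U, G18A, G21U and A22C, with miR-21a-5p first in each, and its seed therefore differs. MiR-21c (chr8:128278188-128278208, minus strand) keeps the seed and differs by A16G, G18A, U19C, U20A and G21A. These substitutions cover the shared length, and miR-21b has 23 bases and miR-21c 21, against 22 in miR-21a-5p. Over 1738 mature mouse entries, 2 carry the seed AGCUUAU, miR-21a-5p and miR-21c. The sequence of the capture probe was not used here, so the share of the signal that comes from either paralogue cannot be told apart from that of miR-21a-5p.

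The spots carry raw brightness in scanner units, as the mean over the pixels of a spot before any correction. In the EAU samples, the 4 Hy3 spots read 295.6, 297.5, 323.7 and 352.6 on the array of replicate 1. They read 1202, 1867, 1654 and 1760 on the array of EAU replicate 2. On the array of EAU replicate 3 they read 289.3, 172.8, 524.3 and 604.1. The EAU readings thus ranged from 172.8 to 1867, with replicate 2 above both others in every spot.

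The Hy3 spots of naive replicate 1 read 63.74, 66.56, 65.72 and 81.44. Those of naive replicate 2 read 61.75, 58.32, 62.65 and 70.36, and those of naive replicate 3 read 54.05, 50.66, 53.34 and 57.74. Every naive reading lay below every EAU reading, and the lowest EAU spot was 2.12 times as bright as the brightest naive spot. Averaged over spots, the arrays read 317.3, 1621 and 397.6 in EAU samples (mean 778.6 ± 730.6, SD, n = 3), against 69.36, 63.27 and 53.95 in naive samples (62.19 ± 7.76, SD, n = 3). Within the EAU group, replicate 2 was 5.11 times as bright as replicate 1 and 4.08 times as bright as replicate 3. None of the readings was marked as an outlier or as saturated by the scanner software.

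**Figure D1:**
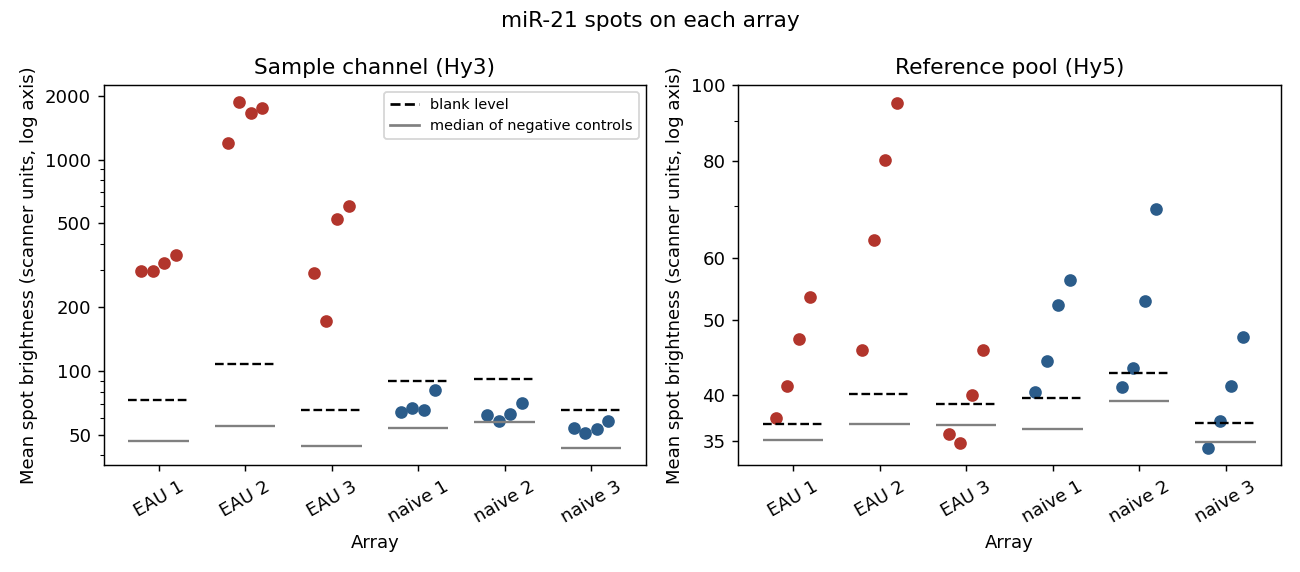
Raw brightness of each miR-21 spot (scanner units, log axis) by array, in the sample channel Hy3 (left) and the reference pool Hy5 (right). Red points are EAU spots and blue points are naive spots in order down the slide; dashed lines mark the blank level of each array and grey lines the median of its negative controls. All 12 EAU spots lie above the line in Hy3 and all 12 naive spots below it, while 10 of 12 spots of either group lie above it in Hy5.

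Each array also holds 116 empty spots and 28 spots of negative-control probes, 144 in all, and a blank level was taken from them as their median plus 3 median absolute deviations. In Hy3 this level was 72.73, 107.4 and 65.39 on the EAU arrays and 89.27, 92.13 and 65.7 on the naive arrays. All 12 EAU spots exceeded it, and 0 of 12 naive spots did. An EAU spot was brighter than 89.6% to 97.9% of the empty and negative-control spots of its array, and a naive spot was brighter than 37.5% to 74.3% of them. MiR-21 in naive retinal cells was not detectable above these blanks.

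The empty spots themselves were uneven. Between 29 and 35 of the 116 exceeded the level on each array, and some were brighter than the EAU spots of miR-21. Set against the negative-control probes alone, the EAU spots were brighter than 96.4% to 100% of those spots, and the naive spots than 53.6% to 100%. With a level taken from the negative controls alone, 1 spot of naive replicate 1 and 1 of naive replicate 3 exceeded it. The software's own mark for a signal well above background was set on 100% of empty and negative-control spots, so it separated nothing.

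The Hy5 channel held the same reference pool on all arrays. There the spots read 34.81 to 94.86 on EAU arrays and 34.25 to 69.37 on naive arrays, and the groups overlapped. Array means were 44.82, 70.99 and 39.11 on EAU arrays, against 48.28, 51.65 and 40.01 on naive arrays. The pool gave little light at the miR-21 probe on any array: the blank level in Hy5 was 36.8, 40.2 and 38.97 on EAU arrays and 39.66, 42.75 and 36.87 on naive arrays, and 10 of 12 spots exceeded it in each group. The brightest Hy5 readings came from EAU replicate 2, which was also the brightest in Hy3.

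The 4 spots lie one below the other along the slide, and Hy5 brightness grew down it. From the uppermost copy to the lowest, Hy5 read 37.45, 41.19, 47.21 and 53.44 on the array of EAU replicate 1, against 40.41, 44.31, 52.19 and 56.21 on that of naive replicate 1. Above local background, the lowest copy of miR-21 gave 3.28, 4.13 and 3.12 times the Hy5 light of the uppermost on EAU arrays, and 2.52, 3.57 and 3.52 times on naive arrays. The gradient was not confined to miR-21: over 188 bright probes its median was 2.22, 2.10 and 1.33 on EAU arrays and 1.99, 2.34 and 2.83 on naive arrays. In Hy3 the same median stayed between 0.934 and 1.20. MiR-21 itself gave 1.21, 1.47 and 2.18 in Hy3 on EAU arrays, and 1.51, 1.29 and 1.15 on naive arrays.

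The log2 ratio was lower at the lower copies in both groups, and the difference between groups stayed close. From the uppermost copy to the lowest, the mean log2 ratio was 0.94, 0.84, 0.73 and 0.58 in EAU samples, against -0.16, -0.27, -0.47 and -0.66 in naive samples. The difference by copy was 1.10, 1.11, 1.20 and 1.24. Fitted from a single copy in limma, the uppermost copy gave an adjusted p of 0.0632 and the next one 0.078, while the other copies passed the threshold of 0.05.

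**Figure D2:**
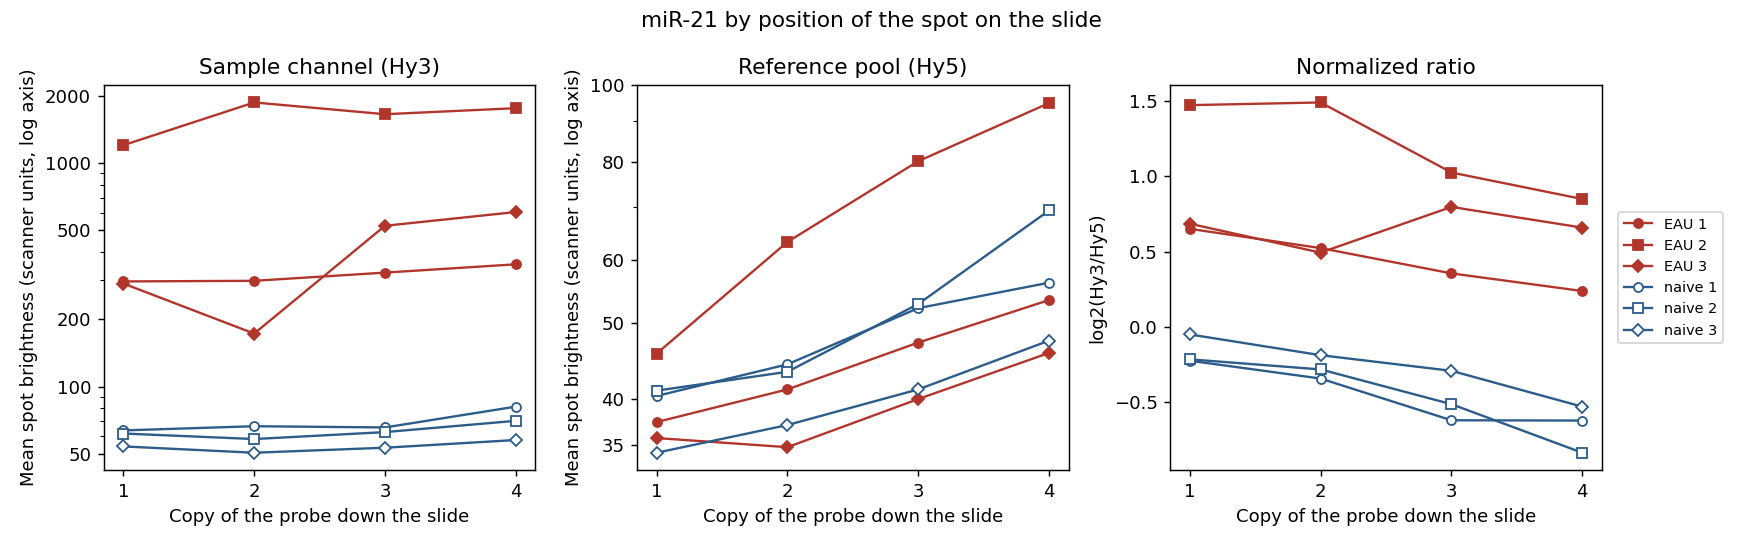
MiR-21 by copy of the probe, 1 at the top of the slide and 4 at the bottom: raw Hy3 brightness, raw Hy5 brightness (scanner units, log axes) and normalized log2(Hy3/Hy5). Each line is 1 array, red filled for EAU and blue open for naive. Hy5 grows down the slide in both groups, and the ratio of every EAU array stays above that of every naive array at each copy.

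After background correction, loess normalization within each array and averaging over spots, the log2(Hy3/Hy5) of miR-21 was 0.44, 1.21 and 0.66 in EAU samples (0.77 ± 0.40, SD, n = 3). It was -0.45, -0.46 and -0.26 in naive samples (-0.39 ± 0.11, SD, n = 3), and the groups did not overlap. The EAU minus naive difference was 1.16 (SE 0.20, 95% confidence interval 0.65 to 1.68), a fitted 2.24-fold higher ratio in EAU. That fold and its interval are fitted values with no exact meaning as a size, because all 12 naive spots lay under the blank level and the size moved with the processing. MiR-21 rose in EAU by limma fitted over 595 mouse probes, with a Benjamini-Hochberg adjusted p of 0.0266. Of these probes, 77 (12.9%) passed the threshold, 25 of them higher (4.2%) and 52 lower (8.74%) in EAU. MiR-21 had the largest difference upward of the 595 but stood at position 39 by p. The number of calls was 7 without EAU replicate 3, 9 without naive replicate 1, 15 without naive replicate 2 and 36 without naive replicate 3. Its split moved with the scaling: 42 higher and 30 lower with the processed signals, 39 and 5 when centred on small RNA probes, and 42 and 40 in the deposited table.

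A group pair without overlap was common on these arrays, with 277 of 595 probes (46.6%), 101 of them (17%) higher in EAU. The median difference over all probes was -0.01, and 5% of probes lay above 0.26. In an exact permutation test over the arrays, two-sided, the miR-21 ratio gave p = 0.1, the smallest value that 20 regroupings allow, so that test cannot pass 0.05 here. The call was lost without EAU replicate 3 (adjusted p = 0.0759 by limma), without naive replicate 1 (0.0934), without naive replicate 2 (0.0938) and without naive replicate 3 (0.06), and it was kept without EAU replicate 1 (0.0221) or EAU replicate 2 (0.0213). Without EAU replicate 2 the difference was 0.94.

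The sample channel alone, normalized between arrays, placed miR-21 at log2 7.50, 8.52 and 8.14 in EAU samples, against 6.03, 5.94 and 6.06 in naive samples. All EAU arrays were again above all naive arrays. The difference was 2.04 (SE 0.26, adjusted p = 0.0153 by limma), the largest upward among 595 probes, of which 63 (10.6%) passed, 29 of them (4.87%) higher in EAU. Because the naive spots lay under the blanks, the fold has no exact size. With each naive array held at its lowest level above the blanks, the mean of the EAU arrays was 3.75-fold higher. That value bounds the naive side only and leaves out the spread among EAU arrays. The fitted difference had a 95% confidence interval of 1.393 to 2.695 and was 1.81 without EAU replicate 2. The call in the sample channel was lost without naive replicate 1 (adjusted p = 0.0649 by limma) and without naive replicate 3 (0.0605).

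The reference channel, tested in the same way, gave 0.12 for EAU minus naive arrays (SE 0.09, 95% confidence interval -0.11 to 0.36, adjusted p = 0.896 by limma). In that channel 0 of 595 probes (0%) passed. The pool is the same RNA on every array. On raw brightness, the log2 difference was 3.25 in Hy3 (exact permutation p = 0.1, two-sided) and 0.11 in Hy5 (p = 0.9).

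**Figure D3:**
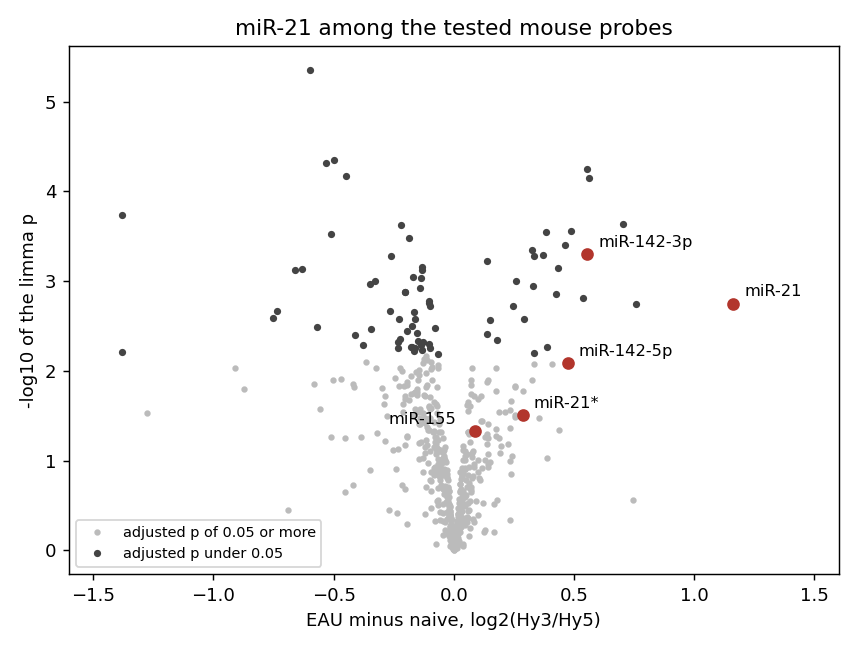
EAU minus naive difference of log2(Hy3/Hy5) against -log10 of the limma p for 595 mouse probes. Dark points passed an adjusted p of 0.05, pale points did not, and miR-21, miR-21*, miR-142-3p, miR-142-5p and miR-155 are marked in red. MiR-21 lies farthest to the right, at 1.16, below many probes with a smaller difference and a smaller p.

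The fitted size of the miR-21 difference differed between settings, and with naive spots under the blanks none of these fitted folds is exact. The loess-normalized ratio with an offset of 50 gave a fitted 2.24-fold, while the software's own processed signals gave 9.92-fold and no background correction 1.88-fold. In the table of ratios that the authors deposited, miR-21 stood at 1.71, 2.90 and 3.28 in EAU samples, against 0.278, 0.262 and 0.396 in naive samples. These linear ratios differ by 3.05 on the log2 scale. Over 30 alternatives, arrays left out included, miR-21 was higher in EAU in each, and its difference was the largest upward in 28. It came second to the human probe miRPlus-F1029 when probes of every species were tested (1.18 against 1.16) and second to miR-709 without EAU replicate 2 (1.14 against 0.94, miR-709 adjusted p = 0.296 by limma); both names were chosen after their values were seen.

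**Figure D4:**
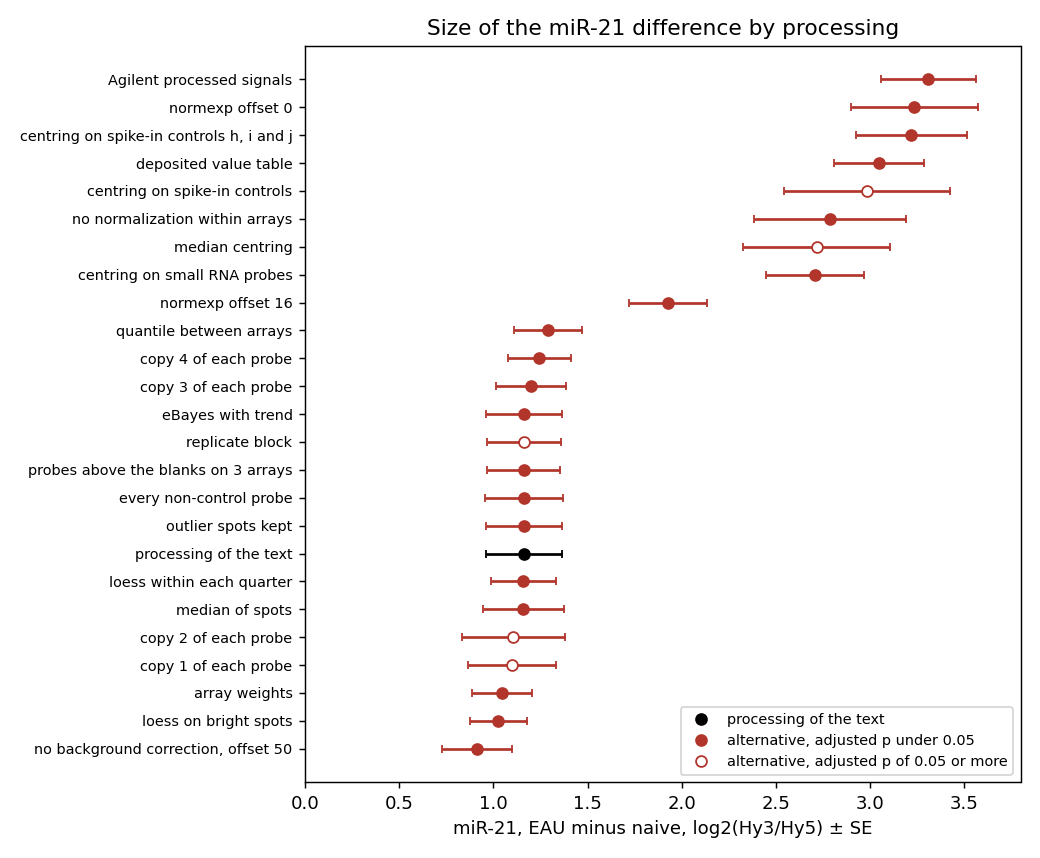
EAU minus naive difference of miR-21 in log2(Hy3/Hy5), with its standard error as bars, under the processing of the text (black) and 24 alternatives (red). Filled points passed an adjusted p of 0.05 and open points did not. All points lie above 0, between 0.91 and 3.31, and 19 of the 24 alternatives passed.

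The other strand of the precursor, miR-21*, is captured by a probe named for mouse and rat. Its Hy3 means were 202.1, 450.3 and 168.9 in EAU samples, against 220.6, 165.4 and 163 in naive samples. Unlike miR-21, it was above the blanks on all 6 arrays, and the groups overlapped in brightness. Its log2 ratio was 0.16, 0.48 and 0.40 in EAU samples, against 0.15, -0.06 and 0.10 in naive samples, with a narrow gap between the groups. The difference of 0.29 (SE 0.10) did not pass the test (adjusted p = 0.108 by limma, and 0.0453 without EAU replicate 1), nor did that of the sample channel (0.21, adjusted p = 0.414). The difference between the strands was not tested. A further probe, named for human miR-21* alone, read under the blanks in all spots of all arrays and differed by 0.03 (adjusted p = 0.233 by limma over probes of every species).

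Among 592 probes with a value on every array, those whose log2 ratio followed miR-21 most closely across the 6 arrays were miR-466d-5p (Pearson r = 0.997), miR-466b-3-3p (0.994), miR-297b-5p (0.993), miR-881* (0.989) and miR-142-5p (0.988). These correlations describe 6 arrays that fall into 2 groups and share the Hy5 pool. MiR-21 separated the groups on these arrays, so a choice by likeness to it favoured probes that also differ. Their tests are thus no separate result. MiR-466d-5p was 0.43 higher in EAU (adjusted p = 0.0236 by limma), miR-881* 0.38 (0.0149) and miR-466b-3-3p 0.29 (0.0324). These 3 passed, where 4.2% of all probes were called higher. All 3 calls were lost without EAU replicate 3, naive replicate 1 or naive replicate 2, and those of miR-466d-5p and miR-466b-3-3p also without naive replicate 3 (adjusted p between 0.0573 and 0.112 by limma). Over 24 processing settings miR-881* was called in 19, miR-466d-5p in 18 and miR-466b-3-3p in 17. All 3 calls were lost with median centring, spike-in centring, the replicate number as a block, and the uppermost copy alone. MiR-297b-5p differed by 0.06 (0.0901) and read under the blanks on all 6 arrays.

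MiR-142-5p, a miRNA of blood cell lineages, was 0.47 higher without passing (adjusted p = 0.0582 by limma, and 0.0359 without EAU replicate 2), and 0.77 higher in the sample channel, where it passed (0.0157). Over 24 processing settings miR-142-5p was called in 13, with differences of 0.31 to 2.73. Its raw Hy3 means were 98.77, 250.2 and 95.85 in EAU samples, against 54.59, 51.86 and 44.97 in naive samples. As with miR-21, the EAU arrays were all above the blanks, the naive arrays were all under them, and EAU replicate 2 was the brightest. Both strands of the miR-142 precursor are shown, with seeds in capitals, because both were higher in EAU and share no seed with miR-21. They lie at chr11:87756867-87756887 and chr11:87756903-87756925 on the plus strand, on the chromosome of the miR-21 precursor.
miR-142a-5p: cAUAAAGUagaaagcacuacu
miR-142a-3p: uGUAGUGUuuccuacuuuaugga

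**Figure D5:**
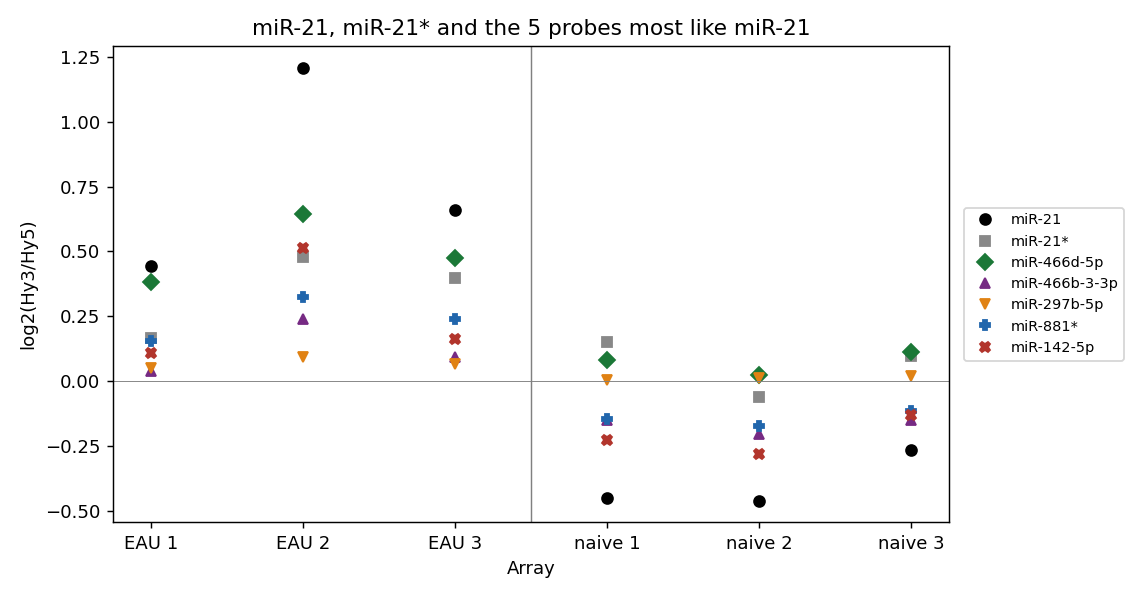
Log2(Hy3/Hy5) of miR-21, miR-21* and the 5 probes with the highest correlation with miR-21, by array, EAU on the left and naive on the right. For each probe the highest value is that of EAU replicate 2, and every EAU value lies above every naive value. The 5 probes were chosen by likeness to miR-21 on these arrays, which favours such a separation.

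MiR-21 was read beside a list of 9 miRNAs whose transcription inflammatory signalling is known to raise. All 9 were tested: miR-21 rose, 0 fell and 8 did not pass, against 4.2% of all probes called higher and 8.74% called lower. The median difference was 0.04, against -0.01 over all 595 probes. Next to miR-21 by p, miR-146b, a feedback inhibitor of innate signalling, was 0.18 higher (adjusted p = 0.0776 by limma). MiR-155, a miRNA of activated lymphocytes and macrophages, was 0.09 higher (0.142), and miR-147, induced by Toll-like receptor signalling, was 0.05 higher (0.39). Over the 23 processing settings that gave them a value, miR-146b was called in 7 (differences of 0.10 to 1.32), miR-155 in 2 and miR-147 in 1. Of the 9 probes, 7 read under the blanks on every naive array, and 3 of them, miR-155, miR-147 and miR-132, on every array, so their ratios rest on little signal.

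Markers of cells that the samples could hold were read in the same fit, in which 4.2% of all probes were called higher and 8.74% lower. Of 7 leukocyte miRNAs, 1 rose, miR-142-3p (0.56, adjusted p = 0.0166 by limma, above the blanks on all EAU arrays and no naive array), and the median of the 7 was 0.13. With 1 of 7 called higher, the list stands against 4.2% of all probes called higher and 12.9% called in either direction. A list of 7 is too short to read a share from. In the sample channel miR-142-3p (0.94, adjusted p = 0.0307 by limma) and miR-142-5p (0.77, 0.0157) passed, where 4.87% of all probes were called higher. The ratio of miR-142-3p was called in 22 of 24 processing settings (differences of 0.05 to 2.01), and in 4 cases with 1 array left out. Its call was lost without EAU replicate 3 (0.0712) and without naive replicate 2 (0.0612). It was also lost with the replicate number as a block (0.0654), and from the uppermost copy of the probe alone, where the difference was 0.05 (0.909). MiR-155 was under the blanks on every array. The summed Hy3 brightness of the 7 above local background was 640.8, 1477 and 641.9 in EAU samples and 461.5, 469.7 and 388.9 in naive samples, again highest in EAU replicate 2. Of 5 neural retina miRNAs, all above the blanks on all arrays, miR-183 (-1.38, 0.0483, fitted without EAU replicate 1, which had no value) and miR-9 (-0.35, 0.0211) fell. The other 3 were also lower, without passing, 1 of them fitted on 2 EAU arrays, and the median of the 5 was -0.91. In the sample channel these 3 passed (differences of -2.07 to -1.42, adjusted p of 0.0153 to 0.0213 by limma). MiR-183 passed there too (-1.89, 0.00106) and miR-9 did not (-0.48, 0.0597), where 10.6% of all probes passed in either direction. Both pigment epithelium miRNAs fell, miR-204 (-0.73, 0.0291) and miR-211 (-0.50, 0.00702). Of 3 erythroid miRNAs miR-486 fell (-0.23, 0.0463), though its sign turned under 5 other scalings, and that of miR-9 under 1. With 1 array left out, miR-211 kept its call each time, miR-9 kept it in 2 cases, without EAU replicate 1 or 2, and miR-204 and miR-486 in 1, without EAU replicate 1. Over 24 processing settings miR-211 was called in 17 (differences of -1.17 to -0.20), miR-204 in 14 (-1.04 to -0.11), miR-9 in 8 (-0.50 to 0.22) and miR-486 in 4 (-0.53 to 0.60), 1 of them with the higher level in EAU. Over the 23 settings that gave it a value, miR-183 was called in 12. The call of miR-183 was lost without any 1 naive array (0.109 to 0.153). Of the other markers, 0 of 2 endothelial and 0 of 3 ocular surface miRNAs passed. Their part in the miR-21 result was not tested, and in a mixed sample more cells of a type and more RNA per cell cannot be told apart.

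The arrays also differed in brightness. The median spot read 62.8, 93.83 and 55.88 in Hy3 on EAU arrays and 69.03, 71.65 and 54.94 on naive arrays, so EAU replicate 2 was the brightest array as well as the one with the brightest miR-21 spots. In the deposited ratios and the processed signals, EAU replicate 3 had the higher miR-21 ratio. The 6 arrays lay on 6 slides scanned on 2 days, and 0 days held both groups, and the effect of the scan day cannot be told apart from that of EAU.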

How the data were processed

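For each array the authors deposited a scanner file of spot intensity in both channels with local background. Per the file headers, the program was Agilent Feature Extraction 9.1.3.1. They also deposited a linear ratio per probe. Over bright probes it followed Hy3 over Hy5 of the processed signals (median r = 0.951 across arrays). Its column medians were 0.809, 0.886 and 0.807 for EAU and 0.879, 0.851 and 0.769 for naive. How it was normalized and centred is not stated in the sources used here. From it, 36 probes above 32 were left out.

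Median local background was removed from mean intensity with normexp (offset 50). Loess within arrays gave control spots a weight of 0, using limma 3.58.1 (R 4.3.3). Outlier spots were dropped, and log2 values were averaged over a probe's spots. Above the blanks means that 50% or more of a probe's spots exceeded the blank level. The sample channel was Hy3 after Aquantile, and the reference channel was Hy5 after quantile normalization. Groups were compared with lmFit and eBayes, two-sided, with no other term, and Benjamini-Hochberg adjustment over 595 mouse probes with at least 2 arrays per group. Confidence intervals are at 95%. The number of arrays limits the precision, and the procedure was tested on simulated data.

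Named are every probe with miR-21 or miR-21* in its name, the 5 mouse probes most correlated with miR-21, the members of the marker and inflammation lists past the threshold, and the 3 next of the inflammation list by p. Probes outside this rule are named as such. Figures were drawn in Python 3.11.15. The members and lists were chosen with earlier results of these data known. Alternatives covered background, offset, normalization, spots, probes tested, values, replicate block, spread and each array left out. Those by copy of the probe, by loess within slide regions, by spike-in controls h, i and j and by other blank levels were chosen after seeing the data.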

Additional observations from a re-analysis of the deposited data

How the results depend on the processing

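MiR-21 was higher in EAU in all 30 alternatives and passed the threshold in 19 of 24 processing settings. It did not pass with median centring (2.72), spike-in centring (2.98), the replicate block (1.16), copy 1 (1.10) or copy 2 (1.11). Without 1 array in turn it was 0.94 to 1.33. In the sample channel it did not pass without normalization (2.84), with spike-in centring (3.13) or with the block (2.04). Without 1 array that channel gave 1.81 to 2.32. The reference channel passed with spike-in controls h, i and j (0.42) and gave 0.03 to 0.20 without 1 array. MiR-21* passed with the processed signals (0.97), the deposited table (0.76) and controls h, i and j (1.12). It gave 0.22 to 0.38 without 1 array.

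The count of 77 calls became 26 with offset 0, 25 without normalization (21 higher, 4 lower), 44 centred on small RNA probes, 24 with loess on bright spots and 116 with quantile normalization between arrays. It was 47 with the median of spots, 127 over every non-control probe, and 2 each with median centring, spike-in centring and the replicate block. Added after seeing the data, copies 1 to 3 gave 21, 36 and 44, loess within slide regions 32, and controls h, i and j 212 (210 higher, 2 lower). The count was 7 to 77 without 1 array. The median difference of all probes was 0.24 with spike-in centring and 0.47 with controls h, i and j.

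MiR-147 changed sign with copy 1 (-0.0013), and miR-9 with controls h, i and j (0.22). MiR-486 did so with median centring (0.10), no normalization (0.17), spike-in centring (0.37), small RNA probes (0.09) and controls h, i and j (0.60). The cause was not tested.

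Same-numbered samples deviated from their group means with r = 0.236, -0.154 and 0.309, and samples with unlike numbers with r of -0.453 to 0.271. These few values cannot decide whether same-numbered samples were paired. With the replicate number as a block, the miR-21 call was lost (adjusted p = 0.0954 by limma). Naive miR-21 lay under the blanks, so the fitted folds are not exact sizes.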
